A study of Mus musculus with 14 samples.

Results

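CSP-TTK21 was compared with its vehicle in trained THY-Tau22 mice, in the dorsal hippocampus, across every gene of the deposited count table of the learning experiment. The comparison rested on 4 libraries of the 14 in the series, 2 from mice given CSP-TTK21 (TAU MOL) and 2 from mice given the carrier alone (TAU VEH). All 4 mice were 8-month-old C57BL6 males that carried THY-Tau22, a heterozygous transgene that makes mutated human Tau under the neuron-specific Thy1.2 promoter, so both groups modelled a neuronal tauopathy and differed in the injected compound. CSP is a carbon nanosphere carrier that brings its cargo into the brain, and TTK21 is a small molecule activator of the histone acetyltransferases CBP and p300. The mice were injected 3 times, once a week, then trained for 3 days to find a hidden platform in the Morris water maze and killed 1 h after the last trial. Wild type mice of the same strain, age and sex served as the background: the 2 WT VEH mice were trained, the 3 WT VEH_HC mice stayed in their home cage, and both groups were described by the study as injected with saline rather than with CSP. Each library came from the dorsal hippocampus of 1 mouse, and n is always the number of mice.

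CBP and p300 add acetyl groups to histones and to other proteins, and they serve as coactivators of CREB, the transcription factor that answers to cAMP and calcium signals in active neurons. Immediate early genes are the first genes that neurons transcribe after such a signal, and many of them carry binding sites for CREB close to their start. In the hippocampus their transcription follows a bout of learning within the hour.

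The table listed 25933 genes, of which 16820 had enough reads to be tested. Depth was 47735120 and 24693713 counted reads in the 2 TAU VEH libraries and 42615029 and 38528559 in the 2 TAU MOL libraries. Levels are given in CPM, the usual depth-scaled unit of sequencing counts (the share of a gene in the reads of its library), after the libraries were scaled by the trimmed mean of M values (TMM). CPM is not divided by gene length, so levels are compared between libraries and not between genes. As bulk tissue was sequenced, fewer cells of a type and less RNA per cell cannot be told apart. Thy1, whose promoter drives the transgene, was at 1805 and 1998 CPM in TAU VEH, 2000 and 2109 CPM in TAU MOL and 786 to 913 CPM in the 5 wild type libraries, so all 4 libraries carried the mark of their labelled genotype. TAU VEH replicate 2, the shallowest library, stood apart by transcripts typical of fat cells: Fabp4 was at 22.8 CPM, Car3 at 16.2 CPM and Adipoq at 7.32 CPM, against at most 0.5 CPM in each of the other 8 libraries. The choice of these 3 genes followed a look at their levels. Counts of the marker lists are also given without that library, after those of all 4.

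The promoter-proximal sequences of 4 genes that the study followed are shown because the immediate early genes are the group in which a CREB coactivator is classically studied. Each is the 250 bases before the annotated gene start in mm9, written 5′ to 3′ on the strand of the gene. Capitals mark the core of the cAMP response element in its half-site form, TGACG or CGTCA, and the AP-1 site TGAGTCA or TGACTCA, searched on both strands. The windows are chr15:101097027-101097276 (plus strand) for Nr4a1, chr12:86814590-86814839 (plus strand) for Fos, chr15:74503001-74503250 (minus strand) for Arc and chr10:101953053-101953302 (minus strand) for Nts.
Nr4a1: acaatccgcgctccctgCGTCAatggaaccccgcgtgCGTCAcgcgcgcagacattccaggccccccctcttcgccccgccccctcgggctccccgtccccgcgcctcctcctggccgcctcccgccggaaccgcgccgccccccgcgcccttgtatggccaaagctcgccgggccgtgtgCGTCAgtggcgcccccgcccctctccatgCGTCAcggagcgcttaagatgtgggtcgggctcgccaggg
Fos: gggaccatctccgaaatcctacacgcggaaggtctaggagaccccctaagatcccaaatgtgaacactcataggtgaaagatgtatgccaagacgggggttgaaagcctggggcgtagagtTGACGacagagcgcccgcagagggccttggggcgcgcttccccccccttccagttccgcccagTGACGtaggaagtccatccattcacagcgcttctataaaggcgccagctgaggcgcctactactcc
Arc: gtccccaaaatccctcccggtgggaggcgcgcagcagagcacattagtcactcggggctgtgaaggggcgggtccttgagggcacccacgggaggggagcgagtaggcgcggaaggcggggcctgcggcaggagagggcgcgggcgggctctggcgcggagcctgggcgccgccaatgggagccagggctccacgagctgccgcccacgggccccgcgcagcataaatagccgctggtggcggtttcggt
Nts: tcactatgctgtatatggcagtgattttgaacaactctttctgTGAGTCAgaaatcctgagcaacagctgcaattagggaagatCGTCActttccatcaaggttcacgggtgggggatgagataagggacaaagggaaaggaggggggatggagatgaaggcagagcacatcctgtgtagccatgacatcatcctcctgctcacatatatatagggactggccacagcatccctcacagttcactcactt

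Nr4a1 held 4 half-sites, whose first bases lay 233, 213, 69 and 40 bases before the start, and Fos held 2, at 129 and 66 bases. Arc held none of the searched letters in this window. Nts held 1 AP-1 site at 207 bases and 1 half-site at 166 bases. Of the 22 tested immediate early genes that encode transcription factors, 15 (68.2%) had a half-site in this window, and 17 of 30 activity-regulated effector genes (56.7%) had one, against 3939 of 16778 windows of all tested genes (23.5%). Of 18 choroid plexus markers, 3 (16.7%) had one. The full palindrome TGACGTCA was present in 3 of the 22 transcription factor genes (13.6%) and in 384 of the 16778 windows (2.29%), and the AP-1 site in 0 of the 22 and in 519 windows (3.09%). A match of letters is a description of the window and not evidence of binding.

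No single gene separated treated from vehicle mice by the test chosen as the main one. A gene was called when its Benjamini-Hochberg adjusted p was under 0.05 and its absolute log2 fold change was over 0.2. With edgeR's quasi-likelihood test, fitted to all 9 libraries of the learning experiment, 0 of 16820 genes passed both limits (0%), and the lowest adjusted p was 0.213. At an unadjusted p under 0.05, 1064 genes (6.33%) were past the line, 643 higher (3.82%) and 421 lower (2.5%) in TAU MOL. DESeq2, the tool family of the study, called 54 of 17888 genes (0.302%), 32 higher (0.179%) and 22 lower (0.123%), the likelihood ratio test of edgeR called 73 genes (0.434%), 48 higher (0.285%) and 25 lower (0.149%), and edgeR's quasi-likelihood test on the 4 THY-Tau22 libraries alone called 60 of 16320 (0.368%), 41 higher (0.251%) and 19 lower (0.116%). In all, 31 genes were called by all 3 of these alternatives, 19 higher and 12 lower, with absolute log2 fold changes from 0.34 to 1.82. Their adjusted p in the quasi-likelihood test on 9 libraries lay between 0.213 and 0.353, so the call of each depended on the tool or on the libraries in the fit. For each of the 102 tested genes that at least 1 of the 3 alternatives called, the highest adjusted p over all other settings tried was at least 0.99988. Genes below are therefore described by their levels in each mouse, and "called" is always tied to a tool. Unless a setting is named, values of edgeR are those of the quasi-likelihood test on 9 libraries, and values of DESeq2 those on the same libraries. With the same libraries, the quasi-likelihood test called 2423 genes (14.4%) for TAU VEH against WT VEH and 1413 (8.4%) for WT VEH against WT VEH_HC.

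**Figure D1:**
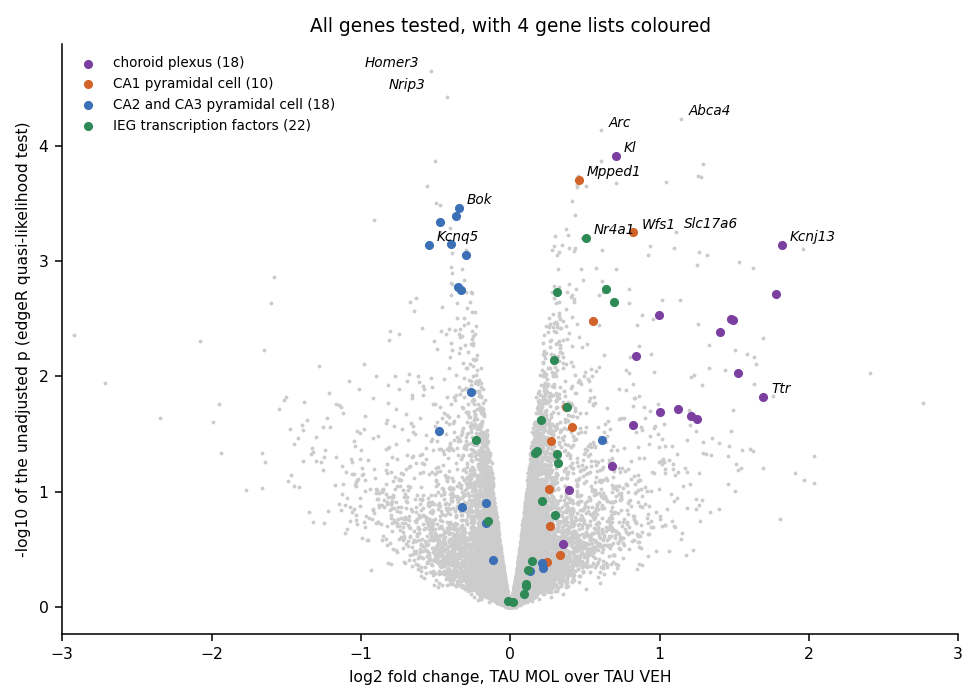
Each point is 1 of the 16820 tested genes, with the log2 fold change of TAU MOL over TAU VEH (n = 2 each) on the x axis and -log10 of the unadjusted p of edgeR's quasi-likelihood test on the y axis; 9 genes lie beyond the plotted range of 3. Choroid plexus and CA1 markers lie on the right and most CA2 and CA3 markers on the left, and the named genes lie at the top, although none passed an adjusted p of 0.05.

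Among the immediate early genes, Arc, whose protein drives the removal of AMPA receptors from synapses, had the clearest difference. Arc (ENSMUSG00000022602, mm9 chromosome 15 from 74499513 to 74503000) was at 263 and 236 CPM in TAU VEH and at 339 and 424 CPM in TAU MOL, or 1.53-fold higher. In WT VEH it was at 427 and 375 CPM and in WT VEH_HC at 143 to 146 CPM. Both vehicle libraries thus lay between the home-cage and the trained wild type mice, and the TAU MOL libraries lay within or just under the trained wild type range. The log2 fold change was 0.61 ± 0.10 (SE), with an adjusted p of 0.213 in edgeR's quasi-likelihood test and 3.52e-05 in DESeq2; over all settings tried it ran from 1.40e-10 to 1. Arc was called by DESeq2 also without either TAU MOL library and without TAU VEH replicate 1, but not without TAU VEH replicate 2.

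Nr4a1, an orphan nuclear receptor induced by activity, was at 78.4 and 73.7 CPM in TAU VEH, 95.9 and 121 CPM with CSP-TTK21, 136 and 123 CPM in WT VEH and 53.7 to 62.1 CPM in WT VEH_HC. It was 1.42-fold higher (log2 0.51 ± 0.11, adjusted p = 0.254 with edgeR's quasi-likelihood test and 0.00492 with DESeq2). Without TAU MOL replicate 2 the log2 fold change was 0.34. Its groups did not overlap, and both TAU MOL libraries were below both WT VEH libraries. Egr1, a zinc finger transcription factor needed for lasting synaptic change, was at 215 and 164 CPM in TAU VEH and 281 and 313 CPM in TAU MOL, 1.56-fold higher. The 2 vehicle mice differed by more for Egr1 than for Arc or Nr4a1, and its adjusted p was 0.347 in the quasi-likelihood test and 0.397 in DESeq2, while the likelihood ratio test gave 0.0332.

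The other early genes that the study followed had smaller differences, none of which passed in the quasi-likelihood test or in DESeq2. Fos, a subunit of AP-1, was at 16.0 and 14.4 CPM in TAU VEH and 19.1 and 20.6 CPM in TAU MOL (log2 0.38 ± 0.14, adjusted p = 0.667 with edgeR). Junb, another AP-1 subunit, was at 62.1 and 66.2 CPM against 71.1 and 85.9 CPM (log2 0.29, adjusted p = 0.517 with edgeR), and its log2 fold change was 0.15 without TAU MOL replicate 2 and 0.19 with the GC and length correction. Dusp1, which dephosphorylates MAP kinases, was at 13.8 and 13.9 CPM against 16.4 and 15.5 CPM (log2 0.20, adjusted p = 0.875 with edgeR). In all 3 genes both treated mice were above both vehicle mice.

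As a list, the 22 early transcription factors had a median log2 fold change of 0.19, against 0.009 over all genes tested. The median was 0.12 when fold changes were corrected for GC content and gene length, and 0.25 with a choroid plexus score of each library in the fit. Both TAU MOL libraries lay above both TAU VEH libraries for 14 of the 22, and below for 2. Over all genes tested such a lack of overlap occurred for 3611 genes upwards (21.5%) and 2927 downwards (17.4%), the shares against which every later count without overlap stands. DESeq2 called 1 of the 22, Nr4a1, and 0.302% of all genes it tested. The same list had a median of -0.32 for TAU VEH against WT VEH and of -0.19 for TAU MOL against WT VEH, comparisons which share these libraries. Of 16 MAP kinase phosphatases and feedback inhibitors, which shut off the same signal, 9 were higher without overlap and 0 lower, with a median of 0.17 that fell to 0.07 without TAU VEH replicate 2. Dusp5, a phosphatase of ERK with the second lowest p of these, was at 34.6 and 33.1 CPM in TAU VEH and 38.7 and 41.4 CPM in TAU MOL (adjusted p = 0.699 with edgeR).

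Effector genes of activity build or tune the synapse. Of 30 such genes, 9 were higher and 5 lower without overlap, where 21.5% and 17.4% of all genes were, and the median was 0.01. Besides Arc, Arl4d, an ARF-like GTPase, was at 15.4 and 15.5 CPM in TAU VEH and 21.9 and 20.2 CPM in TAU MOL (log2 0.45 ± 0.08, adjusted p = 0.213 with edgeR and 0.0664 with DESeq2). Ptgs2, which encodes the inducible cyclooxygenase, had the opposite sign, at 24.4 and 23.3 CPM in TAU VEH and 15.7 and 18.8 CPM in TAU MOL, and DESeq2 called it lower (log2 -0.47, adjusted p = 0.0423). In the 5 wild type libraries Ptgs2 was at 16.6 to 17.4 CPM, below both vehicle mice. Bdnf, the neurotrophin most tied to learning, was at 45.2 and 41.1 CPM in TAU VEH and 36.4 and 48.0 CPM in TAU MOL, and its groups overlapped.

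**Figure D2:**
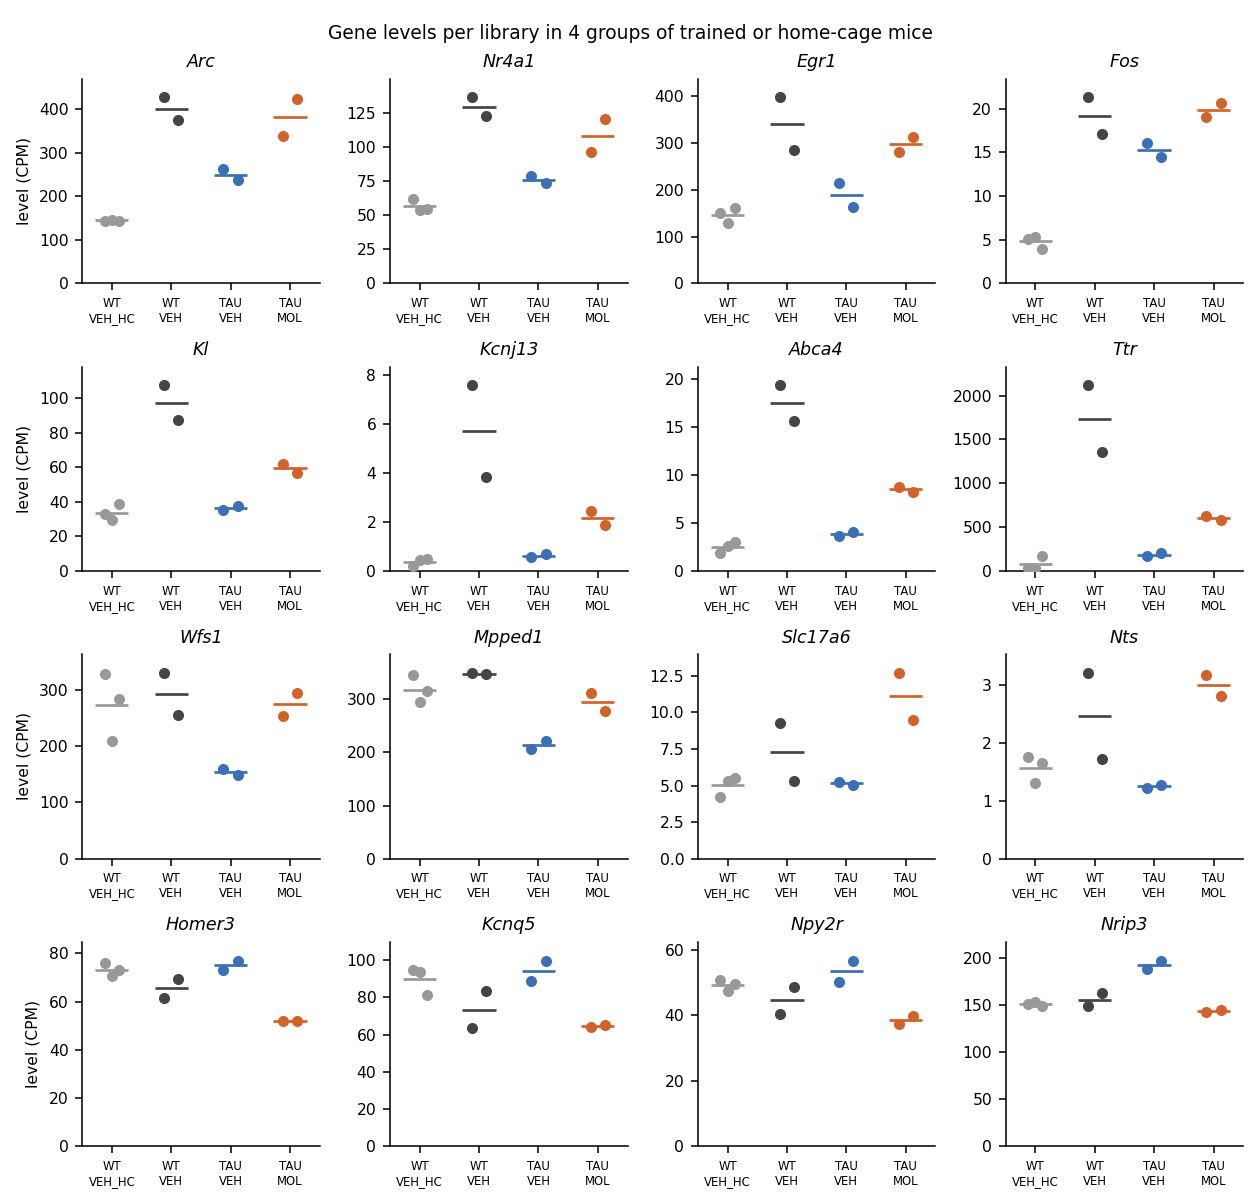
Levels in CPM of 16 genes in each library, with a bar at the group mean, for 3 WT VEH_HC mice and 2 mice in each of the other groups. The TAU MOL points of the first 12 genes lie above the TAU VEH points, as for Arc (339 and 424 against 263 and 236 CPM), and those of Homer3, Kcnq5, Npy2r and Nrip3 lie below them.

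The choroid plexus, the epithelium that secretes cerebrospinal fluid into the ventricles beside the hippocampus, gave the largest shift of any list. Of 18 tested markers, 17 were higher in TAU MOL without overlap and 0 lower, with a median log2 fold change of 1.17. At an unadjusted p under 0.05, 15 were higher, against 3.82% of all genes. Their summed level was 257 and 303 CPM in TAU VEH and 816 and 743 CPM in TAU MOL. It was 2535 and 1643 CPM in WT VEH and 93.6, 87.9 and 254 CPM in WT VEH_HC. The 6 libraries of trained mice lay above the 3 home-cage libraries, the vehicle libraries only just so. Ttr, which encodes transthyretin, the thyroid hormone carrier of the cerebrospinal fluid, was at 171 and 204 CPM in the vehicle mice and 630 and 582 CPM in the treated mice (log2 1.69 ± 0.59, adjusted p = 0.641 with edgeR). In WT VEH Ttr was at 2118 and 1352 CPM.

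Kl encodes klotho, a coreceptor for FGF23 that is made in the choroid plexus and also in neurons. Kl (ENSMUSG00000058488, mm9 chromosome 5 from 151755182 to 151796384) was at 35.3 and 37.3 CPM in TAU VEH and 62.1 and 56.6 CPM in TAU MOL, 1.64-fold higher. The log2 fold change was 0.71 ± 0.13, with an adjusted p of 0.213 in edgeR's quasi-likelihood test and 7.46e-05 in DESeq2, and from 1.02e-11 to 1 over all settings tried. In WT VEH it was at 107 and 87.0 CPM and in WT VEH_HC at 29.5 to 38.5 CPM. DESeq2 called Kl without either TAU VEH library and without TAU MOL replicate 2, but not without TAU MOL replicate 1. When the fit also took up the choroid plexus score of each library (the mean log2 CPM over these markers), the log2 fold change of Kl was 0.35, but Kl is one of the 18 markers in the score, so that part of this decrease is fixed by construction. That score was 1.75 and 1.96 in TAU VEH, 3.10 and 2.87 in TAU MOL and 4.45 and 3.81 in WT VEH. In that fit the markers themselves, from which the score was built, had a median of -0.02.

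Several other genes that DESeq2 called higher were also higher in WT VEH than in WT VEH_HC, as the choroid plexus markers were. Kcnj13, an inward rectifier potassium channel of that epithelium, was at 0.57 and 0.68 CPM in TAU VEH and 2.45 and 1.90 CPM in TAU MOL, 3.53-fold higher (adjusted p = 0.00887 with DESeq2, 0.254 with edgeR). Abca4, a retinoid transporter, was at 3.65 and 4.11 CPM against 8.77 and 8.25 CPM, and reached 19.4 and 15.7 CPM in WT VEH. Ace, the angiotensin-converting enzyme, was at 14.6 and 20.7 CPM against 38.4 and 33.5 CPM. Abca4 and Ace were chosen after their values were seen, and with the choroid plexus score in the fit their log2 fold changes went from 1.14 to 0.73 and from 1.04 to 0.83. The score moved the log2 fold change by over 1.5 times for 34 of 63 genes followed over all settings. These include 4 markers that are part of the score, Kl, Ttr, Clic6 and Kcnj13 (from 1.82 to 0.89), and outside it Egr1 (from 0.64 to 0.38) and Slc17a6 (from 1.11 to 0.68), which became smaller, and Dusp1 (from 0.20 to 0.38), which became larger. For Fos the change was from 0.38 to 0.55. DESeq2 with that score called 0 genes, with 592 at an unadjusted p under 0.05, and edgeR with it also called 0. The score did not overlap between TAU VEH (1.75 and 1.96) and TAU MOL (3.10 and 2.87). This fit therefore cannot separate a difference by treatment from one in choroid plexus content, here or wherever else the score was used.

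**Figure D3:**
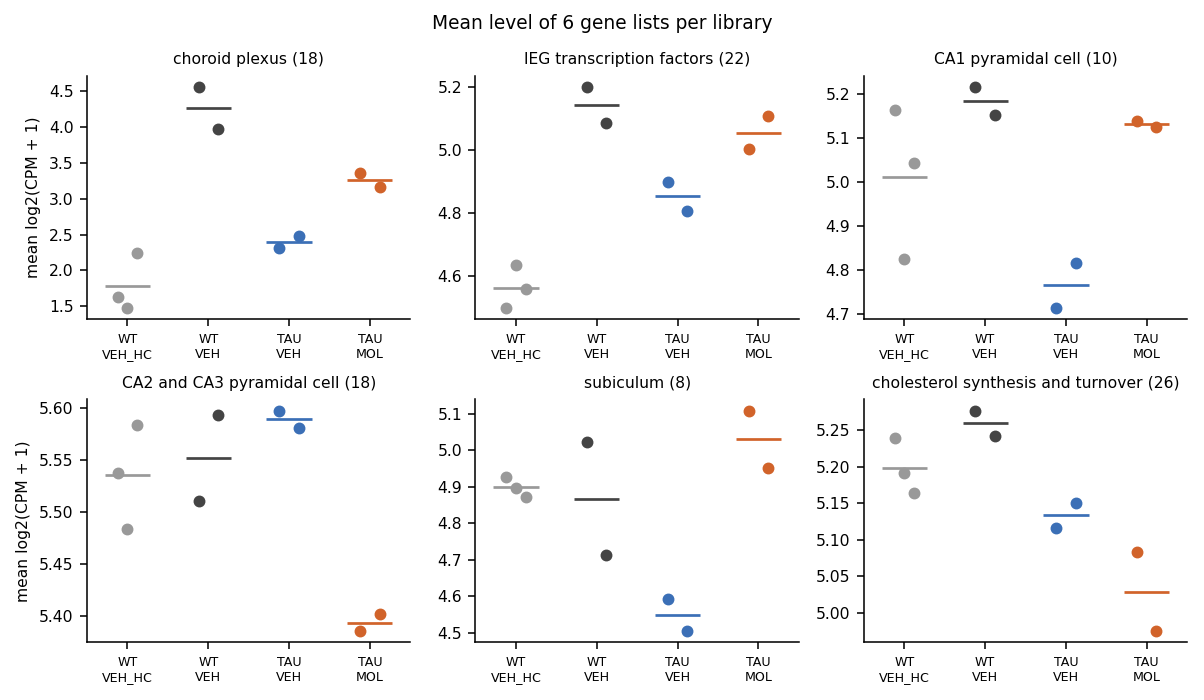
Mean level of 6 gene lists in each library, as the mean over the members of log2(CPM + 1) on axes that do not start at 0, with a bar at the group mean and the number of members in brackets; groups as in the plot of single genes. The choroid plexus markers span 1.47 to 4.56, with TAU MOL at 3.35 and 3.16 and TAU VEH at 2.31 and 2.48, while the CA2 and CA3 markers span only 5.39 to 5.60, with both TAU MOL libraries lowest.

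Markers of the hippocampal fields parted by field. These lists, like the others, were chosen with earlier results of these data known, so the counts describe them and are no independent evidence. CA1, the output field of the hippocampus proper, was represented by 10 markers, of which 9 were higher in TAU MOL without overlap and 0 lower. Their median log2 fold change was 0.35, and their summed level was 677 and 719 CPM in TAU VEH, 973 and 971 CPM with CSP-TTK21 and 1187 and 1103 CPM in WT VEH. Wfs1, which encodes wolframin of the endoplasmic reticulum, was at 159 and 149 CPM in TAU VEH and 253 and 294 CPM in TAU MOL (log2 0.83 ± 0.18, adjusted p = 0.254 with edgeR and 0.128 with DESeq2). Mpped1, a metallophosphoesterase of CA1 and cortical neurons, was at 206 and 222 CPM against 312 and 277 CPM, and DESeq2 called it (log2 0.46 ± 0.09, adjusted p = 0.000656). Fibcd1 was at 204 and 232 CPM against 264 and 263 CPM. The vehicle libraries were the lowest of all 9 for each of these 3 genes.

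CA2 and CA3, the fields upstream of CA1, differed in the opposite direction. Of 18 markers, 12 were lower in TAU MOL without overlap and 2 higher, with a median of -0.31. At an unadjusted p under 0.05, 10 were lower and 1 higher, against 2.5% and 3.82% of all genes. DESeq2 called 6 of them lower, namely Bok, Chgb, Cpne4, Hs3st4, Kcnq5 and Npy2r, against 0.123% of all genes it tested. Bok, a BCL2 family member, was at 149 and 153 CPM in TAU VEH and 118 and 121 CPM in TAU MOL (log2 -0.34 ± 0.07, adjusted p = 0.0104 with DESeq2 and 0.254 with edgeR). Cpne4, a copine, was at 145 and 131 CPM against 105 and 110 CPM. The summed level of the 18 markers was 2182 and 2268 CPM in TAU VEH, 1815 and 1790 CPM with CSP-TTK21, 1927 and 2265 CPM in WT VEH and 2222 to 2293 CPM in WT VEH_HC, so the treated mice were below all other libraries.

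Kcnq5, an M-type potassium channel, was at 89.0 and 99.8 CPM in TAU VEH and 64.1 and 65.5 CPM in TAU MOL. Npy2r, a receptor of neuropeptide Y, was at 50.2 and 56.8 CPM against 37.4 and 39.9 CPM. For both genes the WT VEH libraries, at 63.4 and 83.2 CPM and at 40.5 and 48.7 CPM, lay below or between the levels of the THY-Tau22 groups. The summed levels of CA1 and of CA2 and CA3 markers differed in opposite directions between the same libraries, and the part that the extent of each dissection had in this was not tested.

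The subiculum, which receives CA1 output, differed in the same direction as CA1. Of its 8 markers, 7 were higher without overlap and 0 lower, with a median of 0.41. Slc17a6, the vesicular glutamate transporter VGLUT2 of subicular and thalamic neurons, was at 5.23 and 5.06 CPM in TAU VEH and 12.7 and 9.50 CPM in TAU MOL, 2.16-fold higher (adjusted p = 0.00326 with DESeq2, 0.254 with edgeR). Scn4b, an auxiliary sodium channel subunit, was at 38.6 and 32.4 CPM against 53.0 and 54.7 CPM, and DESeq2 called it higher (adjusted p = 0.0174). Dentate gyrus markers had a median of 0.03, with 1 of 12 higher and 1 lower without overlap, and thalamus markers one of 0.08, with 4 of 12 higher and 1 lower. Neocortex markers had a median of 0.20, and 5 of 11 were higher and 0 lower.

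Without TAU VEH replicate 2, for which a lack of overlap with the single remaining vehicle library occurred for 36.3% of all genes upwards and 31.2% downwards, the choroid plexus markers were again higher for 17 of 18, the CA1 markers for 10 of 10 and the subiculum markers for 7 of 8, with 1 lower. The CA2 and CA3 markers were lower for 13 of 18 and higher for 2. Interneuron markers were higher for 11 of 12, neocortex markers for 6 of 11, thalamus markers for 7 of 12 with 1 lower, and dentate gyrus markers for 2 of 12 with 3 lower. Microglia markers were higher for 8 of 17 and lower for 3, endothelial and mural cell markers higher for 7 of 14, astrocyte markers for 3 of 12 with 2 lower, oligodendrocyte markers for 3 of 15, markers of the meninges and ependyma for 2 of 11 with 1 lower, and 0 of the 5 blood genes lacked overlap. Over 17 alternative settings the median of the CA1 list ran from 0.29 to 0.49, that of the CA2 and CA3 list from -0.34 to -0.28 and that of the subiculum list from 0.35 to 0.52.

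**Figure D4:**
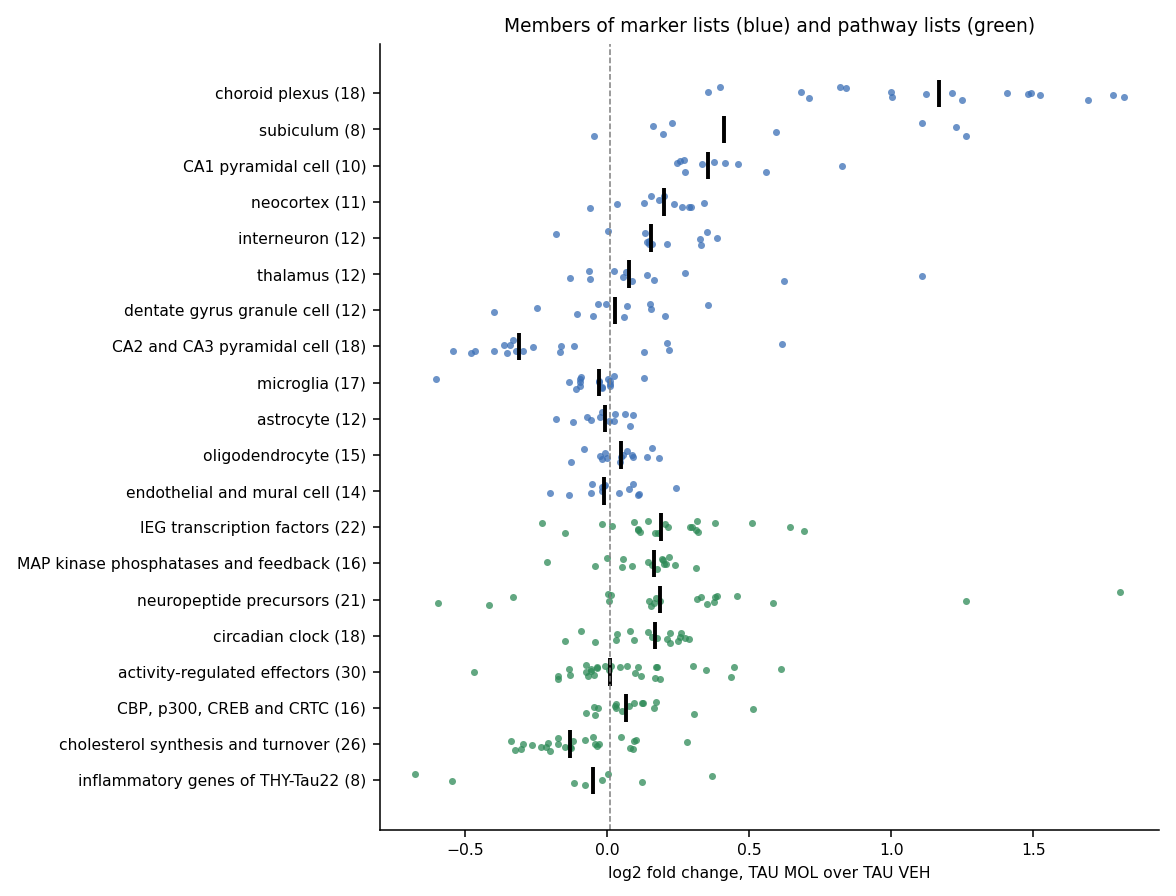
Each point is the log2 fold change of TAU MOL over TAU VEH (n = 2 each) of 1 member of a marker list (blue) or pathway list (green), with a black bar at the median of the list, its number of tested members in brackets, and a dashed line at the median of all genes (0.009). The choroid plexus median stands at 1.17, those of subiculum and CA1 at 0.41 and 0.35, that of CA2 and CA3 at -0.31, and the medians of the glial lists lie within 0.05 of 0.

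Among synaptic genes, Homer3 had the lowest unadjusted p of all genes tested. Homer3 (ENSMUSG00000003573, mm9 chromosome 8 from 72806726 to 72818260), a postsynaptic scaffold that ties group 1 metabotropic glutamate receptors to calcium stores, was at 73.3 and 77.0 CPM in TAU VEH and 52.2 and 51.9 CPM in TAU MOL, 1.44-fold lower. In the wild type groups it was at 61.3 and 69.6 CPM in WT VEH and 70.4 to 76.0 CPM in WT VEH_HC, so the treated mice were below every other library. The log2 fold change was -0.53 ± 0.08, with an unadjusted p of 2.24e-05, an adjusted p of 0.213 in edgeR's quasi-likelihood test and 3.52e-05 in DESeq2. DESeq2 did not call it without TAU MOL replicate 1.

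The study also followed Grik4, a kainate receptor subunit, and Sv2b, a synaptic vesicle protein, both abundant in CA3. Grik4 was at 84.8 and 81.3 CPM in TAU VEH and 66.1 and 66.7 CPM in TAU MOL (log2 -0.32 ± 0.13, adjusted p = 0.744 with edgeR and 0.592 with DESeq2). Sv2b was at 361 and 409 CPM against 308 and 293 CPM (log2 -0.36 ± 0.10, adjusted p = 0.412 with edgeR and 0.0664 with DESeq2). Neither gene passed in these fits, both did in edgeR's quasi-likelihood test without a low-count filter, and in both the groups did not overlap. Once the fit included the choroid plexus score, the log2 fold change of Grik4 was -0.00094 and that of Sv2b -0.18. Of 19 postsynaptic scaffold genes, 11 were higher and 2 lower without overlap, with a median of 0.07. Of 32 synaptic vesicle and SNARE genes, 11 were higher and 8 lower, with a median of 0.01. The GC and length correction took the scaffold median to 0.03 and the vesicle median to -0.02.

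Syt2, a fast calcium sensor of transmitter release, was the vesicle gene with the lowest p, at 36.1 and 29.9 CPM in TAU VEH and 58.2 and 50.0 CPM in TAU MOL (log2 0.71 ± 0.13, adjusted p = 0.000251 with DESeq2 and 0.213 with edgeR). Nrip3 was at 188 and 197 CPM in TAU VEH against 142 and 145 CPM in TAU MOL, and was called lower by DESeq2 (log2 -0.42, adjusted p = 7.46e-05). Nrip3 was chosen after its values were seen. Ionotropic glutamate receptor genes had a median of 0.00 over 18 genes, 4 higher and 5 lower without overlap, and GABA-A receptor subunits one of 0.09 over 13 genes, 4 higher and 2 lower. The choroid plexus score in the fit turned the median of the GABA-A list to -0.10 and took those of the postsynaptic scaffolds and the vesicle genes to 0.0089 and 0.07.

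Of 21 neuropeptide precursors, 12 were higher and 2 lower without overlap, with a median of 0.19. With the choroid plexus score in the fit the median was 0.06 and the log2 fold change of Nts, the member named next, was 0.81. Nts, which encodes neurotensin, was low in all mice, at 1.22 and 1.28 CPM in TAU VEH and 3.18 and 2.82 CPM in TAU MOL, 2.40-fold higher (log2 1.26 ± 0.28). In WT VEH it was at 3.21 and 1.72 CPM, a spread wider than that within either THY-Tau22 group, and in WT VEH_HC at 1.31 to 1.75 CPM. Its adjusted p was 0.254 in edgeR's quasi-likelihood test and 0.0664 in DESeq2, and 0.0185 in the likelihood ratio test. Chgb, which encodes a granin of dense core vesicles, was at 819 and 867 CPM against 687 and 653 CPM, and DESeq2 called it lower (adjusted p = 0.0402).

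Interneuron markers included peptides too. Of 12 markers, 8 were higher and 0 lower without overlap, with a median of 0.15. Sst, the somatostatin precursor, was at 199 and 225 CPM in TAU VEH and 291 and 264 CPM in TAU MOL. Pvalb, the calcium buffer of fast-spiking cells, was at 18.6 and 18.0 CPM against 22.7 and 24.0 CPM, and Slc32a1, the vesicular GABA transporter, at 82.3 and 81.6 CPM against 106 and 99.9 CPM. None was called by edgeR or DESeq2 in these fits, while Sst and Slc32a1 passed in edgeR without a low-count filter. With the choroid plexus score in the fit the median of the list was 0.03, with Sst at 0.07, Pvalb at 0.21 and Slc32a1 at 0.11, and without TAU MOL replicate 2 the median was 0.26.

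Of 26 genes of cholesterol synthesis and turnover, 15 were lower and 2 higher without overlap, where 17.4% and 21.5% of all genes were, and the median was -0.13. At an unadjusted p under 0.05, 8 were lower and 1 higher, against 2.5% and 3.82% of all genes. Sc4mol, a sterol methyl oxidase, was at 53.4 and 56.6 CPM in TAU VEH and 44.6 and 42.3 CPM in TAU MOL (adjusted p = 0.434 with edgeR). Sqle, squalene epoxidase, was at 55.6 and 58.2 CPM against 48.3 and 43.7 CPM. Mvd, an enzyme of the mevalonate pathway, was at 9.69 and 10.2 CPM against 9.26 and 8.63 CPM, and at 22.8 and 23.0 CPM in WT VEH, so both THY-Tau22 groups were below wild type. Cyp46a1, which turns cholesterol into its form that leaves the brain, had the opposite sign, at 143 and 142 CPM in TAU VEH and 167 and 179 CPM in TAU MOL (log2 0.28 ± 0.07, adjusted p = 0.347 with edgeR and 0.118 with DESeq2).

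Of 18 circadian clock genes, 10 were higher and 2 lower without overlap, where 21.5% and 17.4% of all genes were, and the median was 0.17. At an unadjusted p under 0.05, 7 were higher and 0 lower, against 3.82% and 2.5% of all genes. Bhlhe41, a repressor within the clock, was at 40.3 and 42.0 CPM in TAU VEH and 49.7 and 50.6 CPM in TAU MOL, and Npas2, a partner of BMAL1, at 17.0 and 17.2 CPM against 20.6 and 20.1 CPM. Neither was called by edgeR or DESeq2.

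The inflammatory genes that are raised in THY-Tau22 mostly overlapped between treated and vehicle mice. Of 8 genes, a list that the study drew from these mice and that is therefore no independent evidence of its direction against wild type, 0 were higher and 2 lower without overlap, and the median was -0.05, or -0.14 without TAU VEH replicate 1 and -0.00082 without TAU MOL replicate 2. Gfap, the intermediate filament of reactive astrocytes, was at 654 and 764 CPM in TAU VEH and 735 and 664 CPM with CSP-TTK21, against 451 and 423 CPM in WT VEH. C4b, a complement component, was at 112 and 147 CPM against 137 and 123 CPM, and Itgax, a marker of activated microglia, at 1.92 and 1.55 CPM against 2.18 and 1.62 CPM. The groups of these 3 genes overlapped, and all 4 THY-Tau22 libraries lay above all 5 wild type libraries for each.

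Ccl6, a chemokine of myeloid cells, was at 2.11 and 2.79 CPM in TAU VEH and 1.58 and 1.45 CPM in TAU MOL (log2 -0.68 ± 0.22, adjusted p = 0.566 with edgeR). Ccl9, another chemokine, was at 1.42 and 2.11 CPM against 1.25 and 1.12 CPM. Irf8 was at 6.71 and 7.47 CPM against 6.79 and 6.58 CPM, Cd74 at 7.15 and 5.09 CPM against 5.52 and 5.94 CPM, and Ccl4 at 0.43 and 0.57 CPM against 0.74 and 0.52 CPM, and these 3 overlapped. The list had a median of 0.67 for TAU VEH against WT VEH and of 0.58 for TAU MOL against WT VEH, which share the WT VEH libraries.

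Cell type markers of glia and vessels were close to the median of all genes. The medians were -0.03 for 17 microglia markers, -0.01 for 12 astrocyte markers, 0.05 for 15 oligodendrocyte markers and -0.01 for 14 endothelial and mural cell markers, and no member of these 4 lists had an unadjusted p under 0.05. The summed oligodendrocyte level was 7839 and 7986 CPM in TAU VEH and 9336 and 7170 CPM in TAU MOL, with overlap. Markers of the meninges and ependyma had a median of 0.04 over 11 genes, and 5 blood genes one of -0.24 with 0 members free of overlap. In the fit with the choroid plexus score the medians were -0.12 for microglia, -0.10 for astrocyte, -0.34 for oligodendrocyte, 0.16 for endothelial and mural cell, 0.70 for meninges and ependyma and 0.42 for blood genes.

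The targets of the compound themselves were measured as transcripts. Crebbp, which encodes CBP, was at 52.4 and 48.9 CPM in TAU VEH and 52.3 and 51.1 CPM in TAU MOL (log2 0.03 ± 0.08). Ep300, which encodes p300, was at 87.9 and 79.7 CPM against 93.7 and 95.3 CPM (log2 0.17 ± 0.08, adjusted p = 0.772 with edgeR). Of 16 genes of the CBP, CREB and CRTC group, 6 were higher and 0 lower without overlap, with a median of 0.07. Creb3l1, a CREB-like factor of the endoplasmic reticulum, was at 6.30 and 5.77 CPM against 8.26 and 9.05 CPM. Other histone acetyltransferases had a median of 0.01 over 13 genes and histone deacetylases one of 0.06 over 17, of which 7 were higher and 0 lower without overlap. The GC and length correction took the medians of the CBP, CREB and CRTC group and of the deacetylases to 0.03 and 0.0041, and the choroid plexus score took them to -0.02 and 0.08 and that of the other acetyltransferases to -0.09. Mapt, the mouse Tau gene, was at 755 and 743 CPM in TAU VEH and 783 and 740 CPM in TAU MOL, with overlap.

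Genes that trained wild type mice changed against home-cage mice were then followed in TAU MOL over TAU VEH, a comparison that shares no library with that of training. The 900 genes higher after training (5.35% of those tested) had a median log2 fold change of 0.01 for TAU MOL over TAU VEH, and 248 (27.6%) were higher and 176 (19.6%) lower without overlap, against 21.5% and 17.4% of all genes. The 513 genes lower after training (3.05%) had a median of 0.00, with 105 (20.5%) higher and 125 (24.4%) lower. For early genes the training change was large, as for Fos (5.11, 5.30 and 3.97 CPM in WT VEH_HC, 21.3 and 17.1 CPM in WT VEH). Choroid plexus markers had a median training change of 3.49, so they are part of the first set.

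Genes that differed between untreated THY-Tau22 (n = 2) and wild type (n = 3) mice outside the learning experiment, at an unadjusted p under 0.01, formed a further set that shares no library with the treated and vehicle mice. Of the 58 lower in THY-Tau22, 57 were tested here. Their median was 0.16, 42 of 57 had a positive log2 fold change against 52.8% of all genes, and 25 (43.9%) were higher and 8 (14.0%) lower without overlap. With the choroid plexus score in the fit their median was 0.07 and 31 of 57 (54.4%) were positive. The 52.8% of all genes came from the fit without the score, so it is no background for this share. Of the 95 higher in THY-Tau22, 92 were tested, with a median of -0.02, 17 higher and 17 lower without overlap.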

How the data were processed

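RNA was measured by single-end sequencing of poly-A selected libraries made with a kit that does not mark the strand, so reads of a gene and an overlapping antisense gene cannot be told apart. Per the submitters' processing notes, reads were called with CASAVA 1.8.2, aligned to mm9 with TopHat2 2.0.10 and Bowtie2 2.1.0 and counted per Ensembl gene with HTSeq 0.5.4p3, from uniquely aligned reads. The authors deposited raw read counts per gene, which were used here, beside a normalized signal (counts divided by size factors by the authors), which was used only to check the columns. Columns of the authors' own comparisons (fold changes and p-values) were not used. The authors excluded 3 libraries of 1 litter after seeing their data, and these were not analysed here.

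The 9 learning libraries were fitted together in edgeR 4.0.16 (R 4.3.3) with TMM scaling, the filterByExpr filter and the quasi-likelihood test, and the contrast TAU MOL minus TAU VEH was tested two-sided with Benjamini-Hochberg adjustment. Limits were an adjusted p of 0.05 and an absolute log2 fold change of 0.2. DESeq2 1.42.0, which the study used in another version, was an alternative. In the main fit, p-values set the difference between the groups against a spread estimated from all 9 libraries, not from the compared mice alone. Gene lists are described by counts and medians, with no test. In the table, 138 lines held no values and were left out. Genes named are those the study shows for the molecule and some members of the lists. These members came from the 1 or 2 with the lowest adjusted p, or the 3 most abundant of marker lists. Not every such member was named, and Bdnf and the fat cell genes were named outside these rules. A further rule, on the largest changes past the limits, named none. Genes named from DESeq2's calls were chosen after their values were seen. Members and the 41 lists were chosen with earlier results of these data known. Windows and gene positions came from the mm9 genome with GENCODE M1, in which 16778 of the tested genes had a window. On simulated counts with 200 genes changed by 0.5 (log2), edgeR found 48% with 5 false calls and DESeq2 58.5% with 26 over 16614 genes; at a change of 1 it was 89% with 10 and 88.5% with 20 over 16611 genes. Apart from the changed genes, all simulated libraries had the same mean levels, without the choroid plexus, GC and fat cell differences of the real libraries. The shares found therefore do not give the power of the real comparison. The 2 replicates of a group differed beyond counting noise (chi-square per degree of freedom 11.6 in TAU VEH and 11.7 in TAU MOL), so none was a duplicate.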

Additional observations from a re-analysis of the deposited data

How the results depend on the processing

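With 2 mice per group the counts of calls depended on the tool, the low-count filter and the libraries in the fit. Against 0 calls with edgeR's quasi-likelihood test on 9 libraries, the counts (total, higher, lower) were 54, 32 and 22 with DESeq2, 52, 29 and 23 with a normal prior in DESeq2, 73, 48 and 25 with the likelihood ratio test, 233, 143 and 90 without a low-count filter, and 60, 41 and 19 on the 4 libraries alone. Leaving out each library in turn in edgeR gave 0 to 15 calls, 0 to 11 higher and 0 to 11 lower: 11 without TAU VEH replicate 1, 1 without TAU VEH replicate 2, 15 without WT VEH_HC replicate 2 and 1 without WT VEH_HC replicate 3. Of alternatives chosen after seeing the data, DESeq2 on the 4 libraries gave 142, 82 and 60, with 49 of its 54 calls on 9 libraries among them. DESeq2 without 1 library gave 2 to 29 calls, 2 to 14 higher and 0 to 19 lower: 29 (10 higher, 19 lower) without TAU VEH replicate 1, 11 (7 and 4) without TAU VEH replicate 2, 2 (Arc and Nr4a1, both higher) without TAU MOL replicate 1 and 19 (14 and 5) without TAU MOL replicate 2. Of the DESeq2 genes, 2 that were not tested in edgeR, Cfd and Cidec, had reads almost only in TAU VEH replicate 2. The other settings of that test gave 0 calls. The cause of these differences was not tested.

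The labels do not say whether replicate numbers pair the mice. Deviations of replicate 1 of TAU VEH and of TAU MOL had a correlation of -0.02 over 12422 genes, which cannot decide this. A fit with the replicate block gave 0 calls, with the GC and length correction too. In 24 cases a log2 fold change of a named gene changed sign. With the choroid plexus score in the fit Ttr had -0.17, Clic6 -0.26, Ccl4 -1.13, Cd74 0.84, Crebbp -0.0051 and C4b -0.0056. Corrected for gene length and GC content, Crebbp had -0.0092 (-0.0069 with the replicate block), C4b -0.043 (-0.041) and Mapt -0.014 (-0.014). With library size alone C4b had -0.023 and Mapt -0.0019, and on the 4 libraries C4b had -0.0039. Leaving out 1 library at a time gave -0.12 to 0.097 for Gfap, -0.18 to 0.21 for C4b, -0.32 to 0.17 for Cd74, -0.11 to 0.32 for Itgax, -0.016 to 0.067 for Mapt and -0.020 to 0.083 for Crebbp. Of 63 genes, 54 kept their sign under every setting run. The genes higher after training had a median of 0.010 in the quasi-likelihood fit, 0.0059 with DESeq2, -0.021 with library size alone and 0.069 with the GC and length correction, and those lower after training 0.0026 and, with that correction, -0.033. Library size alone moved the median of all genes from 0.009 to -0.017. The log2 fold change correlated with GC content across genes (Spearman's rho 0.228, genes not being independent). With the GC and length correction the medians of the choroid plexus, CA1, and CA2 and CA3 lists were 1.16, 0.31 and -0.33.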

Other observations

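Larger gene families, beyond the lists above, were counted by lack of overlap, which over all genes occurred for 21.5% upwards and 17.4% downwards; no family was tested against these shares. Of 83 potassium channel genes, 28 were higher and 16 lower, with a median log2 fold change of 0.07. DESeq2 called 4, against 0.302% of all genes it tested: Kcnab3, Kcnj13 and Kcnk3 higher and Kcnq5 lower. Kcnk3, a background leak channel, was at 14.4 and 15.0 CPM in TAU VEH and 21.6 and 20.2 CPM in TAU MOL, and Kcnab3, an auxiliary subunit, at 26.1 and 25.4 CPM against 37.2 and 34.7 CPM. These channels were chosen after their values were seen. Of 37 voltage-gated calcium and sodium channel genes, 10 were higher and 8 lower, and of 50 solute carriers of ions, 16 were higher and 10 lower.

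Of 36 mitochondrially encoded genes, 35 had a positive log2 fold change, with a median of 0.22, but only 13 were free of overlap upwards and 1 downwards, and the median ran from 0.05 (without TAU VEH replicate 2) to 0.42 (without TAU VEH replicate 1) over 17 settings. Of 77 cytosolic ribosomal protein genes, 64 had a positive value, with a median of 0.06, and 22 were higher and 0 lower without overlap. The median was -0.16 with the choroid plexus score in the fit and 0.13 without TAU MOL replicate 1, and without TAU VEH replicate 2 the number higher was 49. Their reads may be shared with pseudogenes. Of 38 proteasome subunits, 1 was higher and 8 lower, with a median of -0.06, or -0.13 with the choroid plexus score in the fit. Of 91 nuclear genes of oxidative phosphorylation, 12 were higher and 3 lower, or 51 and 4 without TAU VEH replicate 2, and of the proteasome subunits 15 and 9; over all genes these shares were then 36.3% and 31.2%. No ribosomal or proteasome gene had an unadjusted p under 0.05. Of 356 Zfp zinc finger genes, 68 were higher and 51 lower, with a median of 0.009, as over all genes, while without TAU VEH replicate 2 the counts were 108 and 142. Of 51 collagens and laminins 18 were higher and 8 lower, with a median of 0.06. That score took this median to 0.25 and that of the nuclear oxidative phosphorylation genes from 0.03 to -0.15. Of 31 cAMP signalling genes, 11 were higher and 2 lower, of 16 glucocorticoid responsive genes 3 and 1, of 22 heat shock genes 3 and 3, and of 18 genes of Tau and its kinases 7 and 1.

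Among the 900 genes that were higher after training in wild type mice, the 111 with a training log2 fold change over 1, a subset chosen after seeing the data, had a median of 0.64 for TAU MOL over TAU VEH, and 88 (79.3%) were higher and 0 lower without overlap. Without the choroid plexus markers 93 remained, with a median of 0.56 and 71 (76.3%) higher without overlap. With the choroid plexus score in the fit the median of these 93 was 0.24.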
